A study of Mus musculus with 4 samples.

Results

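The genes described here are 10 interferon-gamma response genes, taken by name from the 54532 mouse genes of the deposited table, and all 10 were found there. They are 4 guanylate-binding proteins (Gbp2, Gbp3, Gbp5 and Gbp7), 5 immunity-related GTPases (Irgm1, Irgm2, Igtp, Iigp1 and Tgtp1) and the transcription factor Irf1. Their messenger RNA was measured by bulk RNA sequencing in tumour-associated macrophages from glioblastoma xenografts in mice. There were 2 libraries labelled as treated with MK-8931 (verubecestat, a drug that blocks the protease BACE1) and 2 control libraries. All 4 came from cells sorted as positive for CD45 and CD11b and negative for Gr1 and DAPI. The labels give the hosts only as GBM mice, with no strain, genotype, age or number of animals, and they do not name the tumour line. Their protocols speak of 3 days of MK-8931 or vehicle given to glioma stem cells, so how the drug reached the macrophages is not settled by them. Whether each library is a different animal is not stated, and the p-values below therefore rest on library-to-library spread that may be technical.

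Interferon-gamma is secreted mainly by T and natural killer cells. It binds the receptor of Ifngr1 and Ifngr2, and the kinases JAK1 and JAK2 then pass the signal to the nucleus, where it acts through gamma-activated sites (GAS) in DNA. One of the genes it switches on is Irf1, whose protein binds interferon-stimulated response elements (ISRE) and drives the GTPase genes. In mouse macrophages the guanylate-binding proteins and the immunity-related GTPases assemble on the vacuoles of intracellular bacteria and parasites and break them open. Irgm1, Irgm2 and Igtp are the regulatory members, which sit on the cell's own membranes and keep the effectors Iigp1 and Tgtp1 inactive there.

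The start-site sequences are shown because they hold letter matches to the ISRE or GAS elements named above. Windows running from 250 bases before to 50 bases after each RefSeq start (GRCm38.p6) were searched for an ISRE core, GAAANNGAAA on either strand, and for GAS, TTCNNNGAA, which reads the same on both strands. Of the members, 9 had windows that were used here, and 8 of these 9 held an ISRE core in a window, against 3.99% of all 27025 genes with windows. GAS was in windows of 6 of the 9, against 9.55% of those genes. The 60 bases around the ISRE core, or for Irf1 around its GAS, follow 5′ to 3′ on the gene's own strand, with bases of either motif in capitals.
Gbp2, chr3:142620579-142620638, plus strand: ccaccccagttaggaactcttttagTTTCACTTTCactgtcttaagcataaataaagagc
Gbp3, chr3:142559977-142560036, plus strand: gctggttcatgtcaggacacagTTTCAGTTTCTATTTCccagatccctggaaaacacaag
Gbp5, chr3:142496744-142496803, plus strand: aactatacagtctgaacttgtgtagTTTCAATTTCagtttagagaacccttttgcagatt
Gbp7, chr3:142530258-142530317, plus strand: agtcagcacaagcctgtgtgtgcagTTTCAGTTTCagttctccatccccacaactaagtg
Irgm1, chr11:48871413-48871472, minus strand: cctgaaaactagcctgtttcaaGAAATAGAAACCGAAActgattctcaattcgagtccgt
Irgm2, chr11:58214888-58214947, plus strand: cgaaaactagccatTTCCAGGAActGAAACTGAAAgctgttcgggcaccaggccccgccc
Igtp, chr11:58199497-58199556, plus strand: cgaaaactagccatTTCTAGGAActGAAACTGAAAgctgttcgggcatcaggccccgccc
Tgtp1, chr11:48992289-48992348, minus strand: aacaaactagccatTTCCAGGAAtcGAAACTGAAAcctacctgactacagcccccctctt
Irf1, chr11:53769898-53769957, plus strand: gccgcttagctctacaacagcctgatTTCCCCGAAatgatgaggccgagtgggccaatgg

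In Gbp3 and Irgm1 the capitals cover 2 overlapping ISRE cores. The guanylate-binding protein genes carry the core as TTTC repeats, its reverse complement, while the immunity-related GTPase genes carry it as GAAA repeats. In Irgm2, Igtp and Tgtp1 a GAS ends 2 bases before the ISRE core. That arrangement, looked for after these 3 were seen, was present in 5 of all 32851 windows. They were those of Irgm2, Igtp, Tgtp1, Tgtp2 and Gm12185, a gene whose span overlaps that of Tgtp1. Over their whole windows Irgm2 and Igtp were 72.8% identical, with a shared run of 61 bases, against a median of 46.2% over the 36 pairs of members. Irf1, which lies upstream of the others in the pathway, had a GAS and no ISRE core in its windows. A match of letters is a description of the sequence and not a measured binding site.

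**Figure D1:**
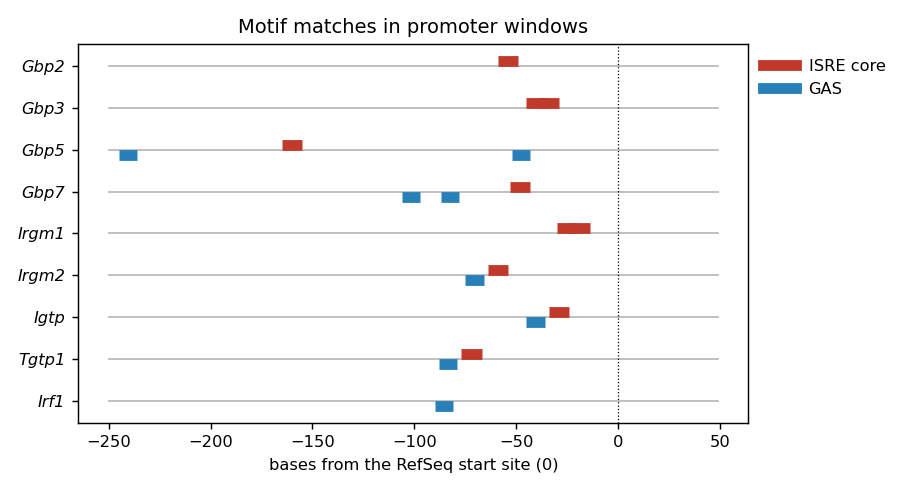
Positions of ISRE core matches (red) and GAS matches (blue) in the first RefSeq window of 9 members, in bases from the start site at 0. Each grey line is one window. Irgm2, Igtp and Tgtp1 show the adjoining GAS and ISRE core, and Irf1 has a GAS alone.

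These genes were expressed at low to moderate levels in the sorted macrophages, which carried the macrophage markers at high levels in each library (Csf1r at 302 to 329 FPKM and Adgre1 at 317 to 366 FPKM). FPKM is the authors' count scaled to gene length and library size, and it allows levels of different genes to be set side by side. Averaged over the 4 libraries, Irf1 was the highest member at 10.8 FPKM, a level above that of 82.6% of the genes detected. Igtp followed at 7.35 FPKM, then Irgm1 (5.47 FPKM), Gbp2 (4.12 FPKM), Gbp3 (3.90 FPKM), Gbp7 (3.34 FPKM) and Irgm2 (2.58 FPKM). Iigp1 (0.748 FPKM), Gbp5 (0.627 FPKM) and Tgtp1 (0.0768 FPKM) were the lowest. The ranges over the 4 libraries did not overlap between Igtp and Irgm1, between Irgm2 and Iigp1, or between Gbp5 and Tgtp1, and the other neighbours in this order did overlap. By these values the 2 effector GTPases were below each of the 3 regulatory ones. The level of Tgtp1 is uncertain, since 81.2% of the 50-base runs in its transcripts also occur in other genes.

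**Figure D2:**
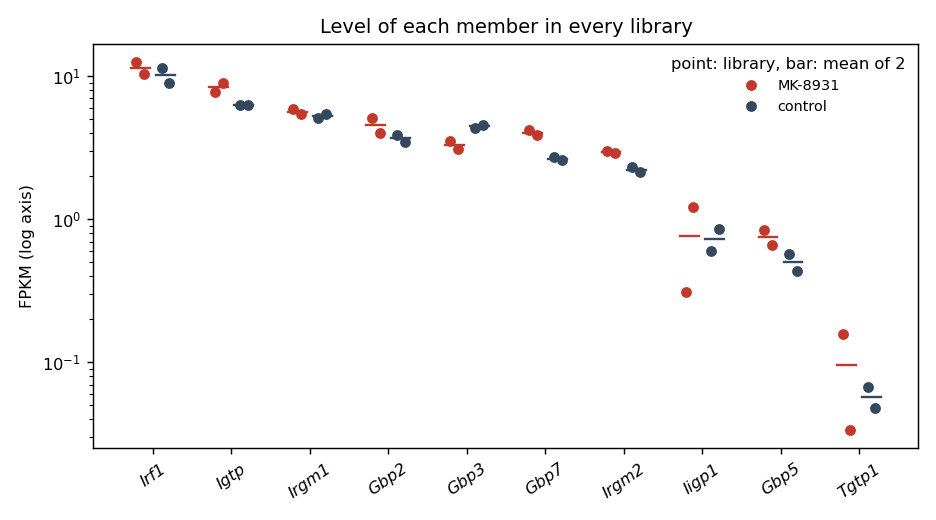
FPKM of each member on a log axis, with MK-8931 libraries in red to the left of control libraries in blue. Points are libraries and bars are means of 2. The steps after Irgm2 and after Gbp5 separate the lowest 3 genes, and the MK-8931 points of Iigp1 lie on both sides of its control points.

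Markers of other cells differed between the groups. Of 10 tested neutrophil markers 9 rose with edgeR, led by Hdc (log2 fold change 5.63, SE 0.25), Cxcr2 (5.74, SE 0.31), Stfa2l1 (6.12, SE 0.40) and Mmp8 (2.48, SE 0.20), although the sort removed Gr1-positive cells. The number was also 9 of 10 with DESeq2 and limma-voom, but 7 of 12 with no filter on low counts. Their median log2 fold change was 3.46, with 2.96 without MK-8931 2 and 4.38 without control 1. The 12 listed neutrophil genes summed to 586 and 973 CPM (counts scaled to library size) with MK-8931. In controls they summed to 92.5 and 86.9 CPM, and none was at 0 in all libraries. The sums do not describe each gene of the list. Camp had 0 and 3 counts with MK-8931 and 2 and 0 in controls. Ngp had 5 and 7 counts with MK-8931 and 7 and 0 in controls. Camp and Ngp had too few counts to be tested. Ltf was tested and did not pass (log2 fold change 2.65, SE 0.94, adjusted p = 0.323). The monocyte markers Plac8 (1.46, SE 0.21) and Ccr2 (1.35, SE 0.23) also rose, with Ccr2 at 133 and 145 CPM with MK-8931 and 69.0 and 40.0 CPM in controls. Ccr2 did not pass without MK-8931 2 (1.28, adjusted p = 0.0576) or with library size alone as the scaling (1.37, adjusted p = 0.0507). Of 8 macrophage markers Itgam (CD11b) rose (0.75, SE 0.14, adjusted p = 0.0485 in edgeR). Cd14 lay just outside (0.72, SE 0.13, adjusted p = 0.0505), named after its value was seen. Mertk, also named after its value was seen, had 131 and 114 CPM with MK-8931 and 158 and 161 CPM in controls. Its log2 fold change was −0.38 (SE 0.13, adjusted p = 0.295). Over the 8 macrophage markers the median log2 fold change was 0.09, with 4 above 0. With a replicate block, 3 of them were higher and 1 lower. The number of macrophage markers higher was 0 without MK-8931 1 or without MK-8931 2, 3 without control 1, and 2 without control 2, with DESeq2 or with limma-voom. The 5 microglia markers summed to 1753 and 1968 CPM with MK-8931 and 2102 and 2350 CPM in controls. Of 4 tested, 0 passed with edgeR or limma-voom, with 2 at an unadjusted p under 0.05. With DESeq2 1 was lower, and with a replicate block 2 were lower. Their median log2 fold change was −0.26, or −0.37 without control 1. The 7 dendritic cell markers summed to 15.4 and 19.5 CPM with MK-8931 and 10.2 and 9.22 CPM in controls, and 0 of 7 passed with edgeR, DESeq2 or limma-voom, with 1 at an unadjusted p under 0.05. Their median log2 fold change was 0.83, and without MK-8931 2 it was 0.40, with 1 higher. The 14 T and natural killer cell markers summed to 1.91 and 1.75 CPM with MK-8931 and 0.979 and 0.892 CPM in controls, with Gzma, Klrb1c, Ncr1 and Nkg7 at 0 counts in all 4 libraries. The part of these cells in the values of the 10 genes was not tested, and in bulk RNA fewer cells of a type and less RNA per cell cannot be told apart.

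No member passed the test between MK-8931 and control macrophages. Of 9 members with enough counts to be tested, 0 were higher and 0 were lower in edgeR's quasi-likelihood test with Benjamini-Hochberg adjustment over 13932 genes at 0.05. Of all tested genes, 0.861% were higher and 0.136% lower. At an unadjusted p under 0.05 there was 1 member, Gbp7, which was higher, against 10.8% of all genes in either direction and 6.53% higher. DESeq2 and limma-voom also called 0 members, each with 1 at an unadjusted p under 0.05. In CPM, both MK-8931 libraries lay above both controls for 6 members, against 21.2% of all genes. With Gbp3, which lay below, the groups did not overlap for 7 of the 9, against 41.2% of all genes. The median log2 fold change was 0.31 over the 9 members and −0.003 over all genes, and 8 of the 9 were above 0, against 49.6% of all genes. The members share inducers, so they are not independent readings, and nothing particular to them follows from these counts. All changes below are fitted log2 fold changes of MK-8931 over control with their standard error (SE), and all adjusted p-values of this kind are edgeR's.

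The 4 guanylate-binding protein genes lie within 144 kb on chromosome 3, and their values did not all run in one direction. Gbp7 (ENSMUSG00000040253, chromosome 3, 142530342 to 142550149, plus strand), a protein linked in mouse to assembly of the NADPH oxidase on phagosomes, had 463 and 403 counts in the MK-8931 libraries and 284 and 284 in the controls. These were 4.20 and 3.87 FPKM with MK-8931 and 2.71 and 2.59 FPKM in controls. Both treated libraries stood above both controls. The fitted change was 0.62 (SE 0.18, adjusted p = 0.210), with a 95% interval of 0.20 to 1.03. Of the 50-base runs in Gbp7 transcripts 10.5% also occur in the pseudogene Gm43802 inside it, which had 0 counts in every library. Gbp3 (ENSMUSG00000028268, chromosome 3, 142560026 to 142573209, plus strand), the next gene along, showed the opposite order. It had 3.53 and 3.10 FPKM with MK-8931 and 4.38 and 4.60 FPKM in controls, so both treated libraries were the lower ones. Its log2 fold change was −0.43 (SE 0.21, adjusted p = 0.529), with a 95% interval of −0.90 to 0.05. The ratio of Gbp7 to Gbp3 counts within a library, which no library scaling can alter, was 2.05 and 2.14 with MK-8931 and 1.06 and 0.969 in controls. This pair was chosen after the values were seen and is given without a test.

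Gbp2 (ENSMUSG00000028270, chromosome 3, 142620602 to 142638008, plus strand) encodes a GTPase that coats parasite vacuoles. It had 5.10 and 3.99 FPKM with MK-8931 and 3.92 and 3.46 FPKM in controls. The lower treated library was barely above the higher control, and the fitted change was 0.31 (SE 0.24, adjusted p = 0.741), with a 95% interval of −0.23 to 0.85. Gbp5 (ENSMUSG00000105504, chromosome 3, 142493978 to 142522344, plus strand), a promoter of NLRP3 inflammasome assembly, was the least expressed of these 4 genes. It had 109 and 82 counts with MK-8931 and 71 and 56 counts in controls, or 0.836 and 0.666 FPKM with MK-8931 and 0.573 and 0.432 FPKM in controls. The groups did not overlap, and the log2 fold change was 0.59 (SE 0.34, adjusted p = 0.627) with a wide 95% interval of −0.20 to 1.37. Summed over the 4 genes, the level was 13.7 and 11.6 FPKM with MK-8931 and 11.6 and 11.1 FPKM in controls.

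None of the 3 regulatory immunity-related GTPases passed the test, and their fitted changes were all above 0. Igtp (ENSMUSG00000078853, chromosome 11, 58199556 to 58207591, plus strand) had 7.71 and 9.01 FPKM with MK-8931 and 6.33 and 6.33 FPKM in controls. Both treated libraries were above the nearly equal controls, and the fitted change was 0.41 (SE 0.20, adjusted p = 0.529), with a 95% interval of −0.04 to 0.86. Irgm2 (ENSMUSG00000069874, chromosome 11, 58199618 to 58222782, plus strand) had 2.98 and 2.89 FPKM with MK-8931 and 2.31 and 2.15 FPKM in controls. Its log2 fold change was also 0.41 (SE 0.23, adjusted p = 0.603). The 2 genes cannot be read as fully separate measurements. In the gene spans given with the counts, Irgm2 starts within Igtp, and 99.2% of the Igtp span lies inside Irgm2 on the same strand. The RefSeq window of Irgm2, from 58214727 to 58215026, instead lies beyond the end of Igtp, so the overlap depends on the start used. Of the 50-base runs in Igtp transcripts, 11.8% also occur in those of Irgm2. The ratio of Igtp to Irgm2 counts was 1.417 and 1.707 with MK-8931 and 1.503 and 1.613 in controls, so the groups overlapped. Irgm1 (ENSMUSG00000046879, chromosome 11, 48861968 to 48871683, minus strand), needed in mouse macrophages for resistance to mycobacteria, had 5.90 and 5.45 FPKM with MK-8931 and 5.10 and 5.45 FPKM in controls. In CPM, which here carries the TMM scaling, both treated libraries were just above both controls, at 34.5 and 31.9 CPM with MK-8931 and 29.8 and 31.6 CPM in controls. The log2 fold change was 0.11 (SE 0.16, adjusted p = 0.878), and the 95% interval of −0.24 to 0.47 runs from 0.846-fold to 1.39-fold.

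The effector GTPases had few counts. Iigp1 (ENSMUSG00000054072, chromosome 18, plus strand), which oligomerises on parasite vacuoles and ruptures them, had 19 and 71 counts with MK-8931 and 35 and 52 counts in controls. The treated libraries were the lowest and the highest of the 4, at 0.310 and 1.23 FPKM, with controls at 0.600 and 0.854 FPKM between them. The fitted change of 0.09 (SE 0.63, adjusted p = 0.982) had the widest 95% interval of the members, −1.36 to 1.53. It became −1.23 without MK-8931 2, 0.75 without MK-8931 1 and −0.15 without control 1. Tgtp1 (ENSMUSG00000078922, chromosome 11, 48985327 to 48994172, minus strand) had 10 and 2 counts with MK-8931 and 4 and 3 counts in controls, too few to be tested. Of the 50-base runs in its transcripts, 81.2% also occur in other genes, 79.4% in its neighbour Tgtp2, so its count is uncertain. Olfr56 overlaps 100% of the Tgtp1 span on the opposite strand, with 43 and 66 counts with MK-8931 and 51 and 88 counts in controls. Gm12185 overlaps 78.0% of it on the same strand, with 15 and 9 counts with MK-8931 and 3 and 6 counts in controls. Tgtp2 had 1.80 and 2.01 CPM with MK-8931 and 1.51 and 2.25 CPM in controls (log2 fold change 0.02, SE 0.50, adjusted p = 0.996). Summed over the 5 immunity-related GTPases, the level was 17.1 and 18.6 FPKM with MK-8931 and 14.4 and 14.8 FPKM in controls.

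Irf1 (ENSMUSG00000018899, chromosome 11, 53770014 to 53778374, plus strand) had 977 and 771 counts with MK-8931 and 848 and 696 counts in controls. That is 12.5 and 10.5 FPKM with MK-8931 and 11.4 and 8.97 FPKM in controls. The groups overlapped, each spanning more than the distance between their means of 11.5 ± 1.46 FPKM with MK-8931 and 10.2 ± 1.73 FPKM in controls (SD, n = 2 each). The log2 fold change was 0.18 (SE 0.18, adjusted p = 0.809), with a 95% interval of −0.22 to 0.59. It was 0.01 without control 2 and 0.36 without control 1. The gene Gm17334, on the opposite strand, overlaps 10.8% of the Irf1 span, and it had 32 and 31 counts with MK-8931 and 24 and 6 counts in controls.

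**Figure D3:**
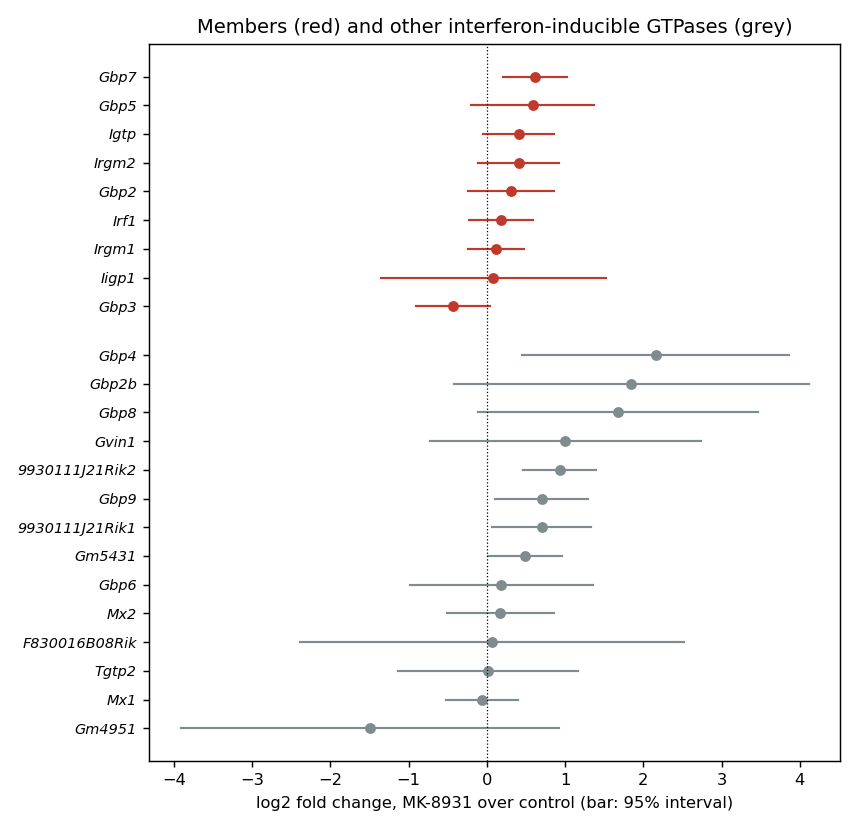
Fitted log2 fold change of MK-8931 over control with its 95% interval for the 9 tested members (red) and 14 other interferon-inducible GTPases (grey). Gbp7 is the member whose interval lies wholly above 0. Gbp3 is the member with a fitted change below 0, and its interval crosses 0. The widest intervals belong to genes with few counts.

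The authors' deposited table also lists a comparison for these genes. The log2 fold change was 0.61 for Gbp7, with p = 0.0178 and adjusted p = 0.332 in the authors' deposited table, and no member had a smaller adjusted p there. For Gbp3 the authors' deposited table listed −0.44, and for Irf1 it listed 0.17. The untested Tgtp1 stands at 0.75 in the authors' deposited table, with an adjusted p of 1.

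Set against its own mean over the 4 libraries, each member had a highest and a lowest library. MK-8931 1 had the highest value of Gbp2, Gbp5, Gbp7, Irgm1, Irgm2 and Irf1, and MK-8931 2 had the highest of Igtp and Iigp1. Control 2 was the lowest library for Gbp2, Gbp5, Gbp7, Irgm2, Igtp and Irf1. The median over the 9 members was 0.22 and 0.13 log2 units above the gene mean in the MK-8931 libraries, and −0.10 and −0.24 in the controls. Among 6829 other protein-coding genes with a mean of at least 20 CPM, the 5 with the nearest profile over the 4 libraries were Tgfb1, Lrig2, Clasrp, Cnot3 and Cflar, at distances of 0.0236 to 0.0310 log2 units. For Tgfb1, the gene of transforming growth factor beta 1, the fitted change was 0.32 (SE 0.13, adjusted p = 0.379).

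**Figure D4:**
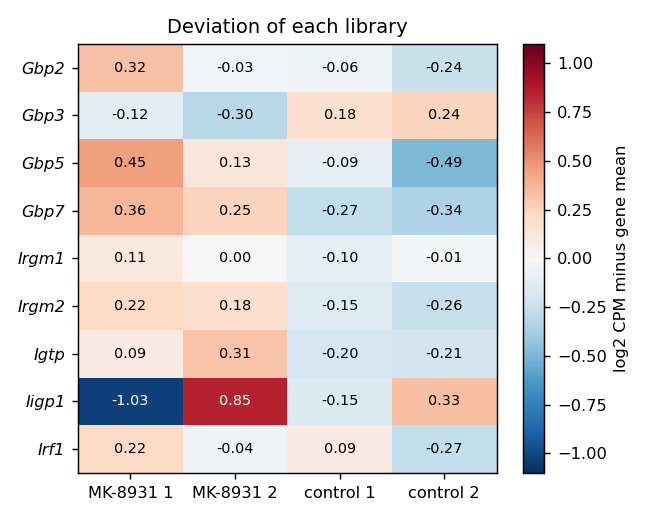
Log2 CPM of each tested member minus its mean over the 4 libraries, with MK-8931 libraries in the left columns and controls in the right columns. Gbp3 has the reverse pattern of Gbp7, and Iigp1 has its lowest and highest values in the 2 MK-8931 libraries.

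The wider family and pathway were taken from lists of related genes. For each list below, the shares over all genes tested with edgeR were 0.861% higher and 0.136% lower. An unadjusted p under 0.05 was found for 10.8% of all genes. Of 14 other interferon-inducible GTPases tested, 0 were higher and 0 lower with edgeR, 5 had an unadjusted p under 0.05, and DESeq2 called 1 and limma-voom 0. Their median log2 fold change was 0.59, with 12 of 14 above 0, and without control 1 it was 1.00. With a replicate block, 1 of the 14 was higher. The smallest p belonged to 9930111J21Rik2, a gene model of this group, at 23.2 and 19.1 CPM with MK-8931 and 11.7 and 10.5 CPM in controls (log2 fold change 0.93, SE 0.20, adjusted p = 0.0854). Gbp4 came next at 1.49 and 1.85 CPM with MK-8931 and 0.485 and 0.255 CPM in controls (log2 fold change 2.16, SE 0.75, adjusted p = 0.308). In both genes the groups did not overlap.

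Transcripts of the inducer itself were almost absent from these sorted cells, and the cytokine in the tumours was not measured here. Ifng had 0 and 0 counts in the MK-8931 libraries and 1 and 0 in the controls, and a count of 0 allows up to 0.155 and 0.164 CPM with MK-8931 and 0.149 CPM in control 2, by counting error only. The receptor genes were well expressed, with Ifngr1 at 124 and 139 CPM with MK-8931 and 114 and 94.5 CPM in controls, and Ifngr2 at 123 and 133 CPM with MK-8931 and 93.9 and 94.99 CPM in controls. Their log2 fold changes were 0.34 for Ifngr1 (SE 0.15, adjusted p = 0.444) and 0.44 for Ifngr2 (SE 0.13, adjusted p = 0.209). The log2 fold change was 0.05 for Jak1 (SE 0.13, adjusted p = 0.947) and 0.23 for Jak2 (SE 0.15, adjusted p = 0.670). Ptpn6, a phosphatase that restrains JAK signalling, had the smallest p of the list, at 254 and 306 CPM with MK-8931 and 192 and 212 CPM in controls (0.48, SE 0.14, adjusted p = 0.204). Of the 13 receptor and signalling genes tested, 0 passed with edgeR, DESeq2 or limma-voom, 4 had an unadjusted p under 0.05, and the median log2 fold change was 0.18. With a replicate block 3 of them were higher, and without control 1 the median was 0.27. Of 11 other interferon regulatory factors and their partners, 0 passed by any of these 3 tools and 3 had an unadjusted p under 0.05, with a median of 0.15, or 0.04 without control 2. With a replicate block, 1 of these 11 was higher. Irf7 had the smallest p of them (0.41, SE 0.13, adjusted p = 0.266), followed by Irf2, a repressor at IRF1 sites (0.41, SE 0.16, adjusted p = 0.367).

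Of 30 other targets of interferon-gamma tested, 2 rose and 0 fell with edgeR, 5 had an unadjusted p under 0.05, and 3 were higher with DESeq2 and 3 with limma-voom. Their median log2 fold change was 0.06, with 16 of 30 above 0, and without control 1 it was −0.01, with 4 higher and 1 lower. The 2 that rose were Acod1, which makes itaconate, at 58.9 and 73.3 CPM with MK-8931 and 4.95 and 7.77 CPM in controls (log2 fold change 3.37, SE 0.24, adjusted p = 5.7e-04), and Nos2, the inducible nitric oxide synthase, at 163 and 153 CPM with MK-8931 and 51.2 and 33.01 CPM in controls (1.91, SE 0.20, adjusted p = 0.00352). Both are also induced by other inflammatory signals.

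Among 21 type I interferon-stimulated genes, 0 passed with edgeR, 7 had an unadjusted p under 0.05, and DESeq2 called 2 and limma-voom 1. Their median was 0.18, and −0.03 without MK-8931 2. The median was 0.20 without control 1 and 0.15 without control 2. With a replicate block, 4 of these genes were higher and 2 lower. Oasl2, an oligoadenylate synthetase-like gene, had the smallest p (0.86, SE 0.16, adjusted p = 0.0517), followed by Oas3 (0.75, SE 0.18, adjusted p = 0.125). Of 18 partners that load these GTPases on membranes, such as ATG8 conjugation genes and prenylation enzymes, 0 passed by any of the 3 tools and 0 had an unadjusted p under 0.05, with a median of −0.10. The prenyltransferase subunit gene Pggt1b (−0.39, SE 0.19, adjusted p = 0.518) and Gabarapl1 (−0.32, SE 0.17, adjusted p = 0.594) had the smallest p of them. Of 8 genes of the caspase-11 and inflammasome pathway, into which guanylate-binding proteins feed, Il1b alone rose (3.23, SE 0.25, adjusted p = 8.4e-04), and 2 were higher with DESeq2 or without control 1. Of 6 cytokine genes that act on interferon-gamma production, 0 passed with edgeR or limma-voom, 2 had an unadjusted p under 0.05, and 1 was higher with DESeq2 or with a replicate block. Il23a (3.68, SE 0.73, adjusted p = 0.0583) and Ebi3 (0.53, SE 0.22, adjusted p = 0.430) had the smallest p of these. Il23a had few counts, with 49 and 43 with MK-8931 and 4 and 3 in controls, so the size of its change is uncertain.

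**Figure D5:**
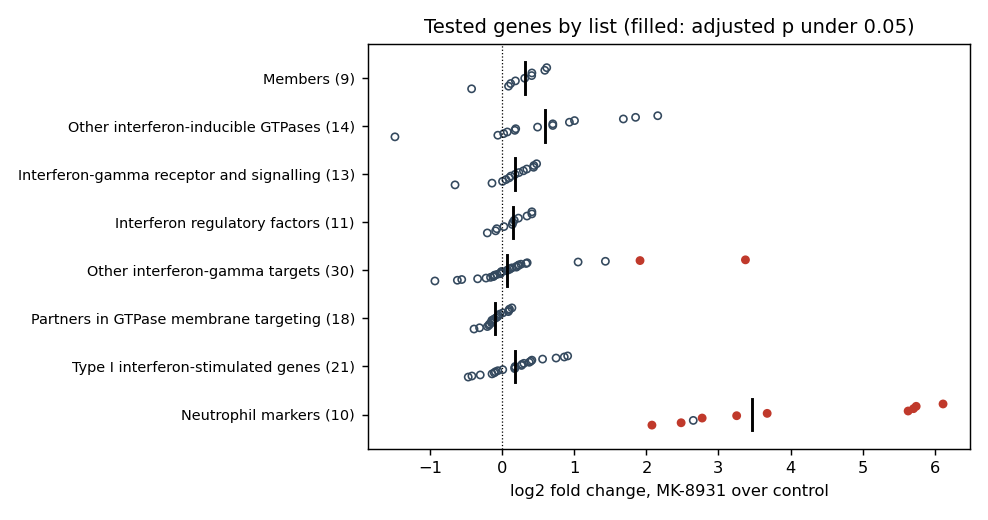
Log2 fold change of every tested gene by list, with the number tested in brackets and the median as a black bar. Filled red points passed at an adjusted p of 0.05. The members and the GTPase, signalling and regulatory factor lists have 0 filled points, 2 stand among other interferon-gamma targets and 9 of 10 among neutrophil markers.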

How the data were processed

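The deposited file gives whole-number counts for each gene, per the file headers, with totals of 18257930 to 20179875 per library. Its FPKM columns come from the authors, per the file headers. Relative to count, length and library total their scale was 1.03 in control 2 and 0.984 to 0.985 in the other libraries, so tests used counts. The submitters' processing notes name CASAVA and mm9, yet 98.3% of the 54409 gene identifiers shared with GENCODE M21 have its GRCm38 coordinates. For the aligner, the counter and the use of strand, nothing is given in the sources used here. The authors' deposited table also holds log2 fold changes and p-values of their own, with no test named.

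Genes were kept by filterByExpr (minimum count 10), scaled by TMM and compared with edgeR 4.0.16 in R 4.3.3 (robust quasi-likelihood F test, two-sided, Benjamini-Hochberg adjustment). SE is the absolute log2 fold change over the square root of F. Alternatives were DESeq2 1.42.0, limma-voom (limma 3.58.1), other scalings, no filter, a replicate block and leaving out each library. Named genes are the 10 members, from each pathway list up to 4 genes that passed in each direction or else the 2 of smallest p, the core receptor and signalling genes, the macrophage markers Csf1r and Adgre1 as a check of the sorted cells, and the 5 genes nearest in profile; further genes named share sequence or position with a member or are marked as chosen later. Members and lists were chosen with earlier results of these data known. No library looked deposited again under another name, since within-group chi-square over its degrees of freedom was 17.1 for MK-8931 and 29.7 for control. Promoter windows came from RefSeq tables and were aligned with Biopython 1.88. Intervals from counts cover counting error only. Some genes are not reported here.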

Additional observations from a re-analysis of the deposited data

How the results depend on the processing

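Each member's log2 fold change was recomputed under 10 alternatives. Direction held under all of them for 8 of the 9 tested members, and Iigp1 turned to −0.23 with limma-voom and −0.14 with a replicate block, with values from −1.23 to 0.75 when 1 library was left out. The number of members higher was 0 under each alternative except the replicate block, where it was 1, Gbp7 (log2 fold change 0.61, adjusted p = 0.0486), and the number lower was 0 under each. The titles number the libraries 1 and 2 in both groups, but nothing says the numbers pair them. Same-numbered deviations correlated at 0.197 over 13932 genes, which with 2 libraries per group does not settle it. With the block, Il1b (3.21, adjusted p = 0.214) and Ccr2 (1.40, adjusted p = 0.0540) did not pass, and Itgam did not pass with library size alone (0.77, adjusted p = 0.0599). The count over all genes moved more. Genes higher numbered 266 with DESeq2, 366 with no filter on low counts, 468 with the replicate block and 85 to 520 with 1 library left out, against 120. Genes lower numbered 96 with DESeq2, 176 with no filter, 30 with limma-voom, 275 with the replicate block and 10 to 243 with 1 library left out, against 19. The cause was not tested. Library size alone and RLE factors gave counts within 1.5 times of these. Few counts limit Tgtp1, Iigp1 and Gbp5.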
